A study of Xenopus laevis with 6 samples.

Results

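Regulators of multiciliated cells were followed in the RNA of whole embryos of the frog Xenopus laevis, collected at the end of gastrulation (NF stage 12.5). The genes were taken from the count table by name, as every row whose symbol, without the homeolog ending L or S and without a paralog number, was ccno, myb, foxj1, foxn4, mcidas, gmnc or cdc20b-like. Of the 45090 rows, 11 met this rule: ccno.L, ccno.S, cdc20b-like.L, myb.L, myb.S, foxj1.L, foxj1.S, foxj1.2.L, foxj1.2.S, foxn4.L and foxn4.S. All 11 passed the filter on low counts, together with 21673 genes in all. No row had the symbol mcidas or gmnc, and these genes are not analysed here. The symbols were proposed because several of these genes were known to be lower in half-size than in intact embryos in these same libraries. Their values in that comparison are therefore given as a description, and no test of them in it is read as a result.

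Both groups were wild-type embryos, fertilized in vitro and grown to the same stage. The intact group received no treatment. The half-size group, described in the labels as twinned, grew from single cells obtained by separating embryos with 2 blastomeres. Each group had 3 libraries, numbered 1 to 3, and the half-size embryos of each number were siblings of the intact embryos with that number, so that each number stands for a sibling set. The labels give neither the number of embryos per library nor any mock handling of the intact siblings. Total counts were between 20069300 and 29284864 per library, so that the rarest of the genes, cdc20b-like.L, rested on 2 to 165 counts. Cdc20b-like.L and foxj1.2.L passed the filter on low counts only through the intact libraries, in which their counts were higher. Levels are given in CPM, the counts scaled to a library of 1000000 counts after TMM scaling of library sizes. No transcript lengths were used, so levels are compared between libraries and not between genes.

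Multiciliated cells arise in the deep layer of the embryonic epidermis, where Notch signalling limits how many precursors take this fate, and later move between the outer cells and carry many beating cilia each. The geminin-family proteins multicilin (mcidas) and Gemc1 (gmnc), acting with E2F factors, switch on genes for making many centrioles and the transcription factors of the cilium programme. Of the genes counted here, ccno and cdc20b belong to centriole production, myb is a transcription factor of the precursors, and foxj1 and foxn4 encode forkhead transcription factors that act on genes of motile cilia.

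Ccno encodes cyclin O, an atypical cyclin needed for the mass production of centrioles. In intact replicates 1, 2 and 3, ccno.L stood at 16.1, 20.7 and 18.6 CPM. In half-size replicates 1, 2 and 3 it stood at 5.48, 9.57 and 6.91 CPM. Every half-size library was below every intact library, and the half-size sibling was 2.94-fold, 2.16-fold and 2.69-fold lower in sets 1, 2 and 3. The homeolog ccno.S stood at 15.9, 20.9 and 14.4 CPM in intact and at 4.24, 7.41 and 4.98 CPM in half-size replicates 1, 2 and 3. Again the groups were apart, with the half-size sibling 3.75-fold, 2.81-fold and 2.89-fold lower. These are bulk values of whole embryos, in which fewer cells of a type and less RNA per cell cannot be told apart.

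The gene cdc20b-like.L carries the name of Cdc20b, a relative of the mitotic activator Cdc20 that takes part in centriole production in multiciliated cells. It was counted 25, 165 and 24 times in intact and 8, 19 and 2 times in half-size replicates 1, 2 and 3, or 1.04, 5.73 and 1.18 CPM against 0.342, 0.952 and 0.0755 CPM. The intact library of set 2 was far above the other intact libraries, and the half-size library of set 2 came close to the lowest intact one without reaching it. In set 3, with 2 counts in the half-size library, the half-size sibling was 15.7-fold lower with a 95% exact interval of 3.89 to 137. The corresponding folds were 3.04 (1.33 to 7.78) in set 1 and 6.02 (3.74 to 10.3) in set 2. These intervals cover counting error only.

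Myb encodes a transcription factor that is present in multiciliated cell precursors and, in other tissues, in blood progenitors. The levels of myb.L were 6.36, 7.54 and 10.8 CPM in intact and 1.24, 3.41 and 1.93 CPM in half-size replicates 1, 2 and 3. For myb.S they were 9.77, 6.08 and 12.4 CPM in intact and 1.58, 2.96 and 1.66 CPM in half-size replicates. Neither homeolog had overlapping groups. The ratio was smaller in set 2 than in the other sets for both copies: myb.L was 5.12-fold, 2.21-fold and 5.61-fold lower in sets 1, 2 and 3, and myb.S was 6.17-fold, 2.06-fold and 7.48-fold lower.

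Foxj1 is the main transcription factor of motile cilia, and is also used by the monociliated cells of the left-right organizer. Its levels in intact replicates 1, 2 and 3 were 18.3, 14.8 and 32.5 CPM for foxj1.L and 33.2, 26.1 and 40.5 CPM for foxj1.S. In half-size replicates they were 7.28, 13.3 and 6.27 CPM for foxj1.L and 19.5, 16.1 and 14.8 CPM for foxj1.S. The groups did not overlap for either copy. In set 2, however, foxj1.L was only 1.11-fold lower, with a 95% exact counting interval of 0.949 to 1.30 that includes no difference, against 2.51-fold in set 1 and 5.18-fold in set 3. For foxj1.S the half-size sibling was 1.71-fold, 1.62-fold and 2.74-fold lower.

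The paralog foxj1.2 is a second foxj1 gene of the frog. Foxj1.2.L stood at 2.29, 7.16 and 2.96 CPM in intact and at 0.257, 2.35 and 0.340 CPM in half-size replicates 1, 2 and 3. Foxj1.2.S stood at 1.33, 6.26 and 3.15 CPM in intact and at 0.642, 1.80 and 0.604 CPM in half-size replicates. For both copies the half-size library of set 2 reached above the intact library of set 1, so the groups overlapped, while within each set the half-size sibling was lower. The folds were 8.90, 3.04 and 8.70 for foxj1.2.L and 2.07, 3.47 and 5.22 for foxj1.2.S in sets 1, 2 and 3. The half-size library of set 1 held 6 counts of foxj1.2.L.

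Foxn4 encodes a forkhead factor that promotes motile cilium genes in multiciliated cells of Xenopus and is also used in retinal and spinal cord progenitors. Foxn4.L stood at 7.11, 13.5 and 10.7 CPM in intact and at 4.11, 8.16 and 4.19 CPM in half-size replicates 1, 2 and 3. Its groups overlapped, because half-size replicate 2 lay above intact replicate 1. Foxn4.S stood at 6.40, 13.0 and 8.63 CPM in intact and at 2.10, 3.71 and 2.27 CPM in half-size replicates, with no overlap. Within sets 1, 2 and 3 the half-size sibling was 1.73-fold, 1.66-fold and 2.56-fold lower for foxn4.L and 3.05-fold, 3.50-fold and 3.81-fold lower for foxn4.S.

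**Figure D1:**
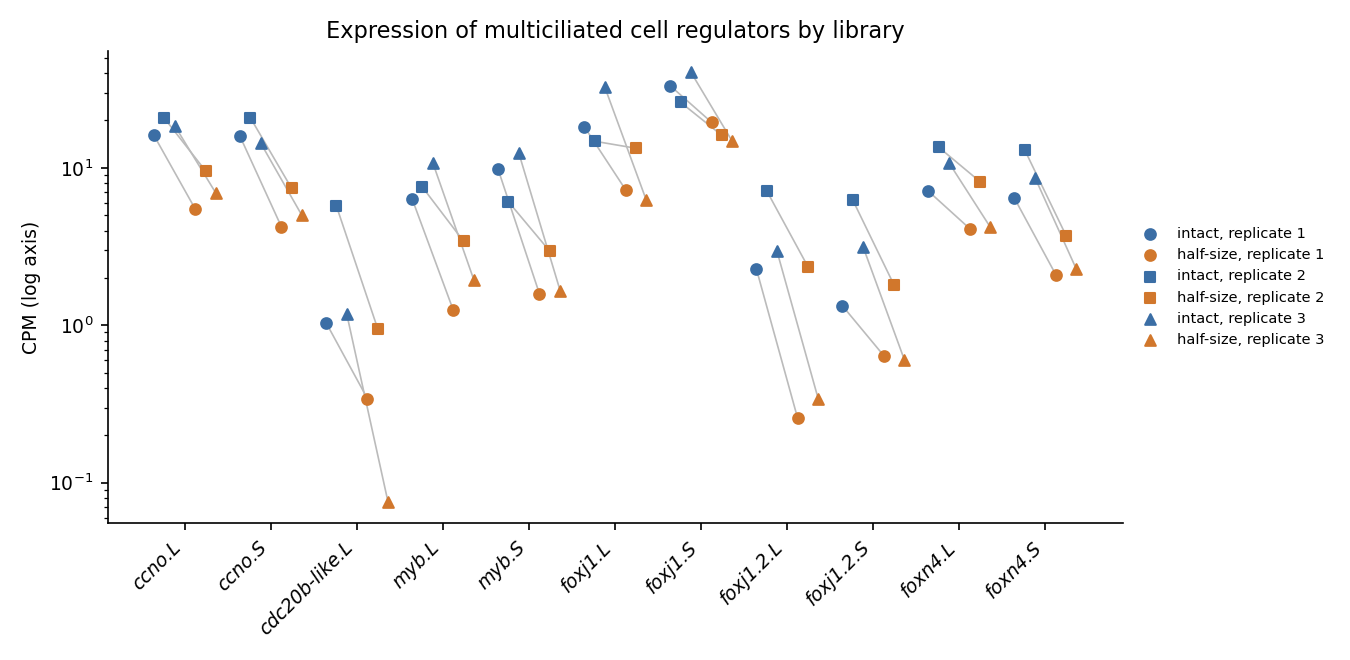
Level of each of the 11 genes (x axis) in CPM on a log axis (y axis), with 1 point per library, blue for intact and orange for half-size, the marker shape giving the replicate number and a grey line joining siblings. Every line slopes down from intact to half-size, and the replicate 2 libraries (squares) are the highest of their group for ccno, cdc20b-like, foxj1.2 and foxn4.

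All 11 genes were lower in the half-size sibling in 3 of 3 sets, as were 22.6% of all genes tested. Groups did not overlap for 8 of the 11, with every half-size library below every intact one, which was found for 4.90% of all genes tested. Two-sided tests were run over the whole table with edgeR's quasi-likelihood method and Benjamini-Hochberg adjustment at 0.05. With the replicate number as a block, here called the paired fit, all 11 passed the threshold as lower, against 3.93% of all genes tested as lower and 5.92% in either direction. Without the block 0 genes passed in either direction (0.00%), while at an unadjusted p under 0.05 all 11 were lower, against 2.33% of all genes as lower and 3.58% in either direction. By DESeq2 without the block 6 of the 11 passed as lower, where 52 of all genes passed, 37 of them as lower. Since this comparison is the one on which the symbols were proposed, nothing is read from these counts.

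On the log2 scale the paired differences ran from −0.95 ± 0.17 (SE) for foxn4.L to −2.52 ± 0.36 for cdc20b-like.L, with a median of −1.78 over the 11 genes and 0.00 over all genes tested. The values between were −0.98 ± 0.15 for foxj1.S, −1.27 ± 0.31 for foxj1.L, −1.36 ± 0.14 for ccno.L, −1.64 ± 0.14 for ccno.S, −1.78 ± 0.17 for foxn4.S, −1.79 ± 0.28 for foxj1.2.S, −1.96 ± 0.25 for myb.L, −2.18 ± 0.30 for myb.S and −2.31 ± 0.32 for foxj1.2.L. The spread of the log2 ratio between sibling sets differed among the genes. It was smallest for foxn4.S (SD 0.161, n = 3), ccno.L (0.226) and ccno.S (0.229), and was 1.19 for cdc20b-like.L, 1.11 for foxj1.L and 1.004 for myb.S. Without replicate 2 the paired difference went to −2.77 for myb.S, −3.11 for foxj1.2.L and −1.86 for foxj1.L, and without replicate 3 that of foxj1.L went to −0.72. In the authors' deposited table the same 11 genes were between 1.90-fold (foxn4.L) and 5.78-fold (cdc20b-like.L) lower in half-size embryos.

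**Figure D2:**
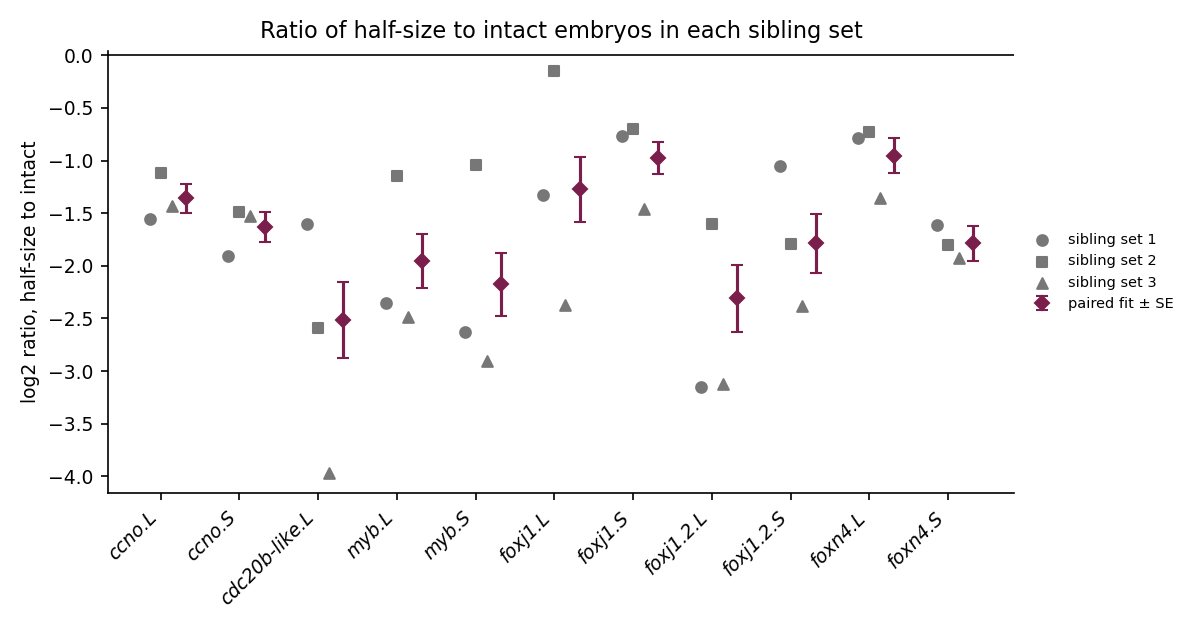
Log2 ratio of half-size to intact level (y axis) for each gene (x axis) in sibling sets 1, 2 and 3 (grey markers), with the estimate of the paired fit ± SE (diamonds and bars). All ratios lie below 0, the nearest being foxj1.L in set 2 at −0.15 and the farthest cdc20b-like.L in set 3 at −3.97.

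The rule takes exact symbols, so the rows gmnc-like.L and gmnc-like.S are outside it. Gmnc-like.L stood at 4.57, 0.243 and 1.18 CPM in intact and at 1.80, 0.150 and 1.59 CPM in half-size replicates 1, 2 and 3, lower in 2 of 3 sets. It did not pass the threshold with the block (−0.60 ± 0.37 log2 units, SE; edgeR adjusted p = 0.381). Gmnc-like.S, with 25 counts over the intact and 15 over the half-size libraries, was removed by the low-count filter. Gmnc-like.L had its lowest levels in set 2, where ccno, cdc20b-like.L, foxj1.2 and foxn4 had their highest.

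Xenopus laevis is an allotetraploid, and most of these genes are counted as L and S homeologs from its 2 subgenomes. How the authors' counting treated reads shared by near-identical copies is not stated in the sources at hand, so the split between copies is uncertain. The L copy of foxn4 held 52.6%, 51.0% and 55.5% of L plus S counts in intact and 66.2%, 68.8% and 64.9% in half-size replicates 1, 2 and 3. The groups did not overlap, as was the case, in either direction, for 8.51% of the 4934 homeolog pairs with both copies tested. The 95% exact interval of half-size replicate 1, the library with the fewest counts of this pair, ran from 57.9% to 73.8%, and these intervals cover counting error only. For ccno the L share averaged 52.2% ± 3.63 (SD, n = 3) in intact and 56.9% ± 0.999 in half-size libraries. It was higher in the half-size sibling in every set, by 6.06, 6.51 and 1.74 percentage points in sets 1, 2 and 3, while the ranges met at 56.3%. The 95% exact intervals of the ccno siblings overlapped in every set. How many of all homeolog pairs moved in 1 direction in every set was not counted. For myb it averaged 47.1% ± 7.98 and 50.4% ± 5.59, with overlap.

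Among half-size libraries the L share varied more for foxj1 (SD 9.79, n = 3) and foxj1.2 (14.5) than for the other pairs. Among intact libraries that of myb varied most (SD 7.98, n = 3). The L share of foxj1 was 35.5%, 36.1% and 44.5% in intact and 27.2%, 45.3% and 29.8% in half-size replicates 1, 2 and 3, so that it was lower in the half-size sibling in sets 1 and 3 and higher in set 2. The 95% exact intervals of the siblings were apart in all 3 sets, at 32.8% to 38.2% against 23.7% to 30.9% in set 1, 33.4% to 39.0% against 41.2% to 49.4% in set 2, and 41.9% to 47.1% against 26.03% to 33.8% in set 3. Such intervals cover counting error only, and how many other homeolog pairs had siblings apart in this way was not counted. For foxj1.2 the L share was 63.2%, 53.4% and 48.4% in intact and 28.6%, 56.6% and 36.0% in half-size replicates. The half-size values of sets 1 and 3 rested on 21 and 25 counts, with intervals of 11.3% to 52.2% and 18.0% to 57.5%. Differences in response between copies were part of the comparison that chose the genes and were not tested.

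**Figure D3:**
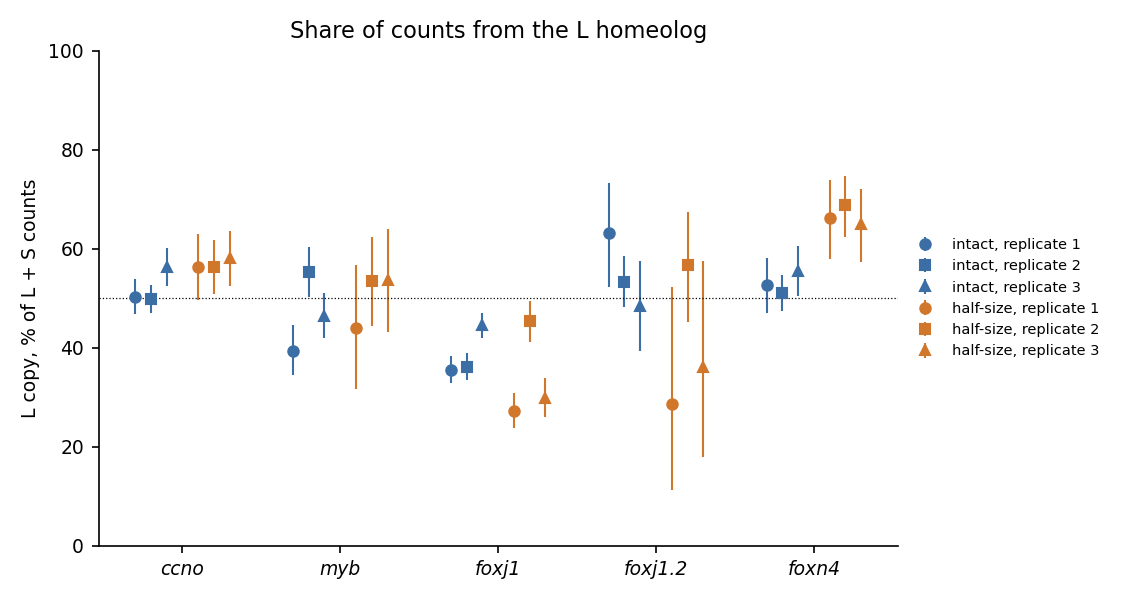
Share of L plus S counts that came from the L copy, in percent (y axis), for the 5 genes counted as both homeologs (x axis), with 1 point per library and its 95% exact binomial interval. For foxn4 the 3 half-size libraries, between 64.9% and 68.8%, lie above the 3 intact ones, between 51.0% and 55.5%; for the other genes the groups overlap.

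Sibling sets were compared next, a measure that does not enter the comparison of half-size with intact embryos. The replicate terms of the paired fit were tested together with edgeR's quasi-likelihood F test, and 49.1% of all genes passed at an adjusted p of 0.05. Of the 11 regulators 7 passed, a share near that background. They were cdc20b-like.L (adjusted p = 0.000847), foxj1.2.L (0.00153), foxj1.2.S (0.00215), foxn4.S (0.00690), foxn4.L (0.00709), ccno.S (0.0243) and ccno.L (0.0421). Myb.L (adjusted p = 0.114), foxj1.S (0.276), foxj1.L (0.563) and myb.S (0.729) did not pass. Replicate 2 was the highest within both groups for 7 of the 11, the same 7 that passed, and for 27.5% of all genes tested. The share among all genes that passed was not counted. The mean of the 2 siblings of a set was 3.34 CPM in set 2 for cdc20b-like.L, against 0.691 CPM in set 1 and 0.629 CPM in set 3. For foxj1.2.L it was 4.76 CPM against 1.27 and 1.65 CPM. For foxj1.L the means of sets 1, 2 and 3 were 12.8, 14.05 and 19.4 CPM. These differences rested on set 2: without it 0 of the 7 passed (adjusted p between 0.187 and 0.942), where 21.2% of all genes did, and myb.L passed (0.0404). By DESeq2's likelihood ratio test 5 of the 11 passed, against 37.5% of all genes, and the calls of ccno.L (adjusted p = 0.102) and ccno.S (0.0556) were lost. The call of ccno.L was also lost without replicate 1 (adjusted p = 0.161).

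Over the 6 libraries the log2 levels of the 11 genes correlated pairwise at a Pearson r of 0.55 to 0.99, with a median of 0.89 over 55 pairs. The lowest value was that of foxj1.S with foxj1.2.S and the highest that of ccno.L with ccno.S. All values share the difference between the groups that chose the genes, and are given as a description. The mean profile of the 11 genes was closest to foxn4.S (r = 0.98) and ccno.L (0.98) and farthest from foxj1.S (0.77). Outside the set, the symbols of 1 CPM or more on average that were most like this mean profile over the 6 libraries were oaf-like.S (r = 0.998), mmp3.L (0.996), dkc1-like.L (0.995), unc50.L (0.992) and rbm25.L (0.991). They differed in the size of the change: mmp3.L, a metalloproteinase gene, had means of 7.71 ± 3.24 CPM (intact) and 0.637 ± 0.620 CPM (half-size; SD, n = 3), whereas those of rbm25.L were 273 ± 10.7 and 239 ± 15.8 CPM (SD, n = 3).

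In the reference assembly Xenopus_laevis_v10.1 ccno.L is next to mcidas.L, which is followed by cdc20b.L, and ccno.S is next to mcidas.S. Whether the row cdc20b-like.L is the same gene as cdc20b.L is not stated in the sources at hand. On the other side of ccno.L lies dhx29.L, an RNA helicase gene. It rose from a mean of 41.5 to 55.7 CPM by the paired fit (0.42 ± 0.10 log2 units, SE; edgeR adjusted p = 0.0322), a call lost without replicate 2 (adjusted p = 0.142) and without replicate 3 (0.158). Slc38a9.S, an amino acid transporter gene within 3 genes of ccno.S, averaged 2.52 and 2.09 CPM and did not pass (adjusted p = 0.471).

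The other genes of the pathway were grouped by role, leaving out the 11 regulators. These lists, and the cell type lists below, were chosen with earlier results of these data known. Of the 153 tested genes on the 5 pathway lists, 7 fell and 3 rose by the paired fit, against 3.93% lower and 1.99% higher among all genes tested. Gmnn, the geminin gene, is on 2 of these lists and was counted once. Without the block 0 passed, and 6 lower and 2 higher ones had an unadjusted p under 0.05. Of the transcription partners, which comprise RFX, E2F and DP factors, p73 and geminin, 0 of 20 passed in the paired fit, and at an unadjusted p under 0.05 without the block 0 passed as well. Their median log2 fold change was −0.02. Rfx2.S, whose product works with Foxj1 on cilium genes, had means of 66.8 ± 6.23 CPM (intact) and 52.3 ± 6.60 CPM (half-size; SD, n = 3; edgeR adjusted p = 0.0543), and rfx2.L 42.9 ± 8.85 and 52.1 ± 3.70 CPM (adjusted p = 0.227). Rfx4.L (log2 fold change −0.69, adjusted p = 0.0572) and e2f1.L (0.44, adjusted p = 0.260) did not pass either, although rfx4.L did without replicate 2 (adjusted p = 0.0267).

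Of the genes of centriole amplification 2 of 22 fell and 0 rose in the paired fit, with a median log2 fold change of −0.11. Sass6.L, which encodes a protein of the centriole cartwheel, stood at 71.6, 46.6 and 67.9 CPM in intact and at 49.6, 31.5 and 42.4 CPM in half-size replicates 1, 2 and 3, and fell by 0.59 ± 0.09 log2 units (SE, adjusted p = 0.00522). Cetn4.L, a centrin gene, fell by 0.89 ± 0.19 log2 units (SE, adjusted p = 0.0200) from 5.95 ± 1.31 to 3.17 ± 0.0872 CPM (SD, n = 3), a call lost without replicate 2 (adjusted p = 0.0621) and without replicate 3 (0.116). Cep97.L (log2 fold change −0.46, adjusted p = 0.0783) and plk1.S (0.26, adjusted p = 0.0711) did not pass, but did without replicate 1 (adjusted p = 0.0498 and 0.0414), where 4 of the 22 were lower and 2 higher. Ccdc67.L, the row found for deup1, which builds the deuterosomes on which centrioles multiply, was looked up after its values were seen. It stood at 1.29, 11.1 and 1.92 CPM in intact and at 0.514, 2.35 and 2.08 CPM in half-size replicates 1, 2 and 3, and did not pass (log2 fold change −1.23 ± 0.38 SE, adjusted p = 0.0840). That value rested on single sets: it was −0.44 without replicate 2 (adjusted p = 0.637) and −1.98 without replicate 3, where it passed (0.00831). Like the 7 regulators above, ccdc67.L was highest in replicate 2 within both groups.

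Of 41 tested genes on the motile cilium list, among them axonemal dynein, tektin, radial spoke and dynein assembly genes, 0 passed in either direction in the paired fit. Without the block 0 had an unadjusted p under 0.05. The list also holds an alpha-tubulin gene (tuba1b) and intraflagellar transport genes (ift88 and ift172), so it is not confined to motile cilia. The log2 fold changes of the tested genes on the list lay between −0.39 and 0.48. Their median was 0.13, against 0.00 over all genes tested. Of the 41, 32 were above 0, whereas about as many of all genes tested lay above 0 as below. This difference was not tested. Summed over the list, the level was 366, 384 and 337 CPM in intact and 412, 385 and 397 CPM in half-size replicates 1, 2 and 3. The genes with the smallest p were tuba1b.S (log2 fold change 0.47, adjusted p = 0.0917), dnah7.L (0.44, adjusted p = 0.148), cfap45.S (0.48, adjusted p = 0.156) and wdr16.L (0.42, adjusted p = 0.162). Another 6 rows of the list were removed by the low-count filter, of which 2, spag16.S and tppp3.S, had no count in any library. Leaving out replicate 1 brought tuba1b.S past the threshold as higher (adjusted p = 0.00755), and leaving out replicate 2 did so for wdr16.L (0.0393). A p that misses the threshold does not show that these genes did not differ. Their RNA can also come from cells of the embryo other than multiciliated ones. These values therefore do not measure the cilium programme of multiciliated cells.

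Notch ligands, receptors and targets were mixed, with 4 of 32 lower and 2 higher in the paired fit and a median log2 fold change of −0.03. Hes5.1.S, a Notch target of the Hes family, stood at 14.9, 13.1 and 18.4 CPM in intact and at 6.68, 8.31 and 9.48 CPM in half-size replicates 1, 2 and 3, without overlap, and fell by 0.92 ± 0.14 log2 units (SE, adjusted p = 0.00514). Hes3.3.L and hes3.3.S, found as a synonym of hes5.3, fell by 1.099 and 0.96 log2 units (adjusted p = 0.0137 and 0.0166), calls lost without replicate 3 (adjusted p = 0.0959 and 0.103). The receptor gene notch1.L rose from 103 ± 23.6 to 138 ± 36.4 CPM (SD, n = 3; adjusted p = 0.0164), a call lost without replicate 2 (adjusted p = 0.110) and without replicate 3 (0.0904). The remaining calls, named after their values were seen, were those of hes5.1.L, which fell by 0.66 log2 units (adjusted p = 0.0208), and hes1.L, which rose by 0.51 (adjusted p = 0.0314). The first was lost without replicate 1 (adjusted p = 0.0683) and without replicate 3 (0.106), the second without replicate 2 (0.0597), without replicate 3 (0.163) and with homeologs summed (0.0598).

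The relatives of the regulators, namely other cyclins, Myb-like, FoxJ, FoxN, geminin and Cdc20-family genes, had 1 of 40 lower and 1 higher in the paired fit and a median log2 fold change of 0.08. Ccng2.S, a cyclin G gene, fell from 32.7 ± 3.70 to 19.5 ± 6.71 CPM (SD, n = 3; log2 fold change −0.80 ± 0.14 SE, adjusted p = 0.0103). Ccne2.S, a cyclin E gene of the entry into DNA replication, rose from 25.6 ± 4.52 to 37.0 ± 5.90 CPM (SD, n = 3; adjusted p = 0.0127), a call lost without replicate 2 (adjusted p = 0.0633) and with homeologs summed (0.0529). Ccna1.S (log2 fold change 0.50, adjusted p = 0.0872) and ccnf.S (0.39, adjusted p = 0.0811) did not pass, the former passing without replicate 2 (adjusted p = 0.0434).

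**Figure D4:**
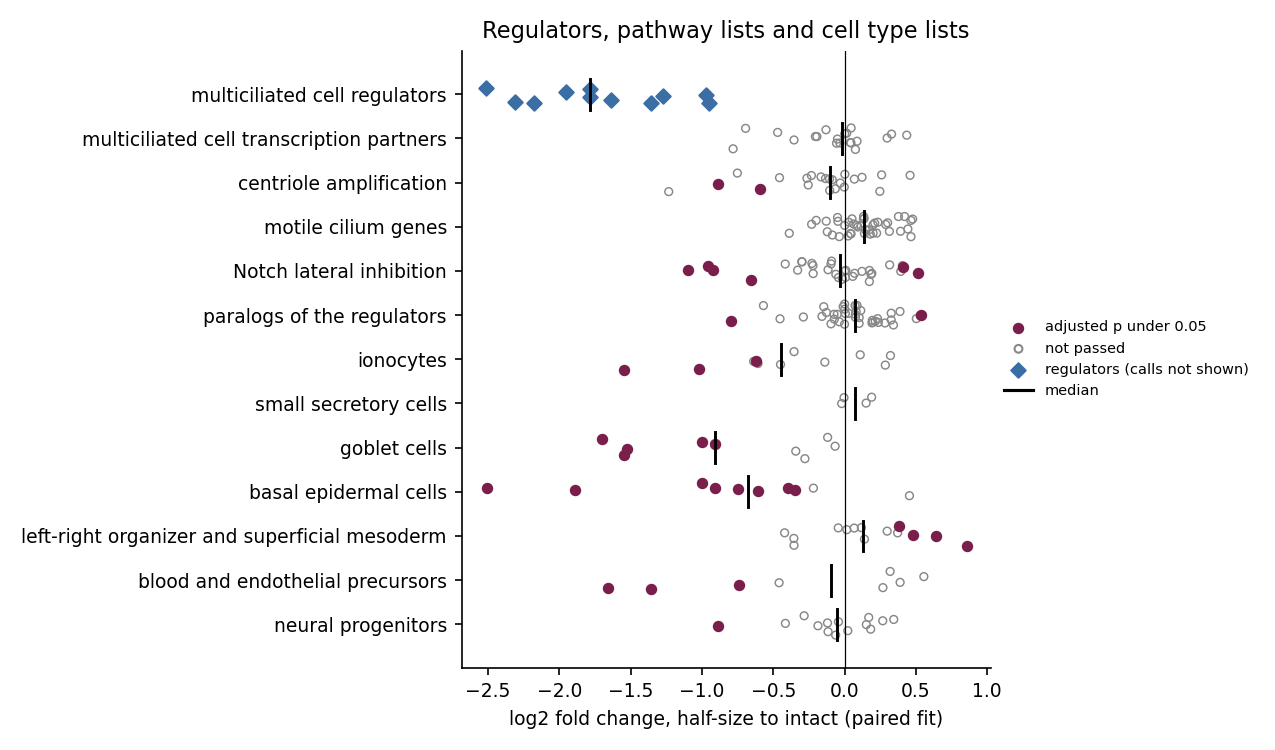
Log2 fold change of half-size to intact embryos in the paired fit (x axis) for the 11 regulators (blue diamonds, calls not shown), the 5 pathway lists and the 7 cell type lists (y axis), with 1 point per tested gene, filled where the adjusted p is under 0.05, and a bar at each median. The regulators lie between −2.52 and −0.95, the motile cilium genes between −0.39 and 0.48, and the goblet and basal epidermal lists have medians of −0.91 and −0.68.

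Genes listed as markers of 2 other epidermal cell types, goblet and basal cells, had lower summed levels in every half-size library than in any intact one. Their part in the values of the regulators was not tested. Krt12 enters both sums, and for how many lists of other genes the sums part in this way was not counted. These marker lists were chosen with earlier results of these data known, so their calls are given as a description. Of the genes listed for goblet cells, the mucus-secreting cells of the epidermis, 5 of 9 fell and 0 rose by the paired fit. Their summed level was between 1260 and 1912 CPM among intact and between 817 and 1239 CPM among half-size libraries, and 0 of the 10 rows were without counts throughout. They included the intelectin itln1.L, the disulfide isomerase genes agr2.L and agr2.S, and the keratin krt12.S (log2 fold changes −1.55, −1.53, −1.70 and −0.91; adjusted p = 0.000333, 0.000973, 0.00127 and 0.000685). The list for basal epidermal cells, from whose layer multiciliated precursors arise, held the homeologs of tp63, krt12, krt (found for krt70), itga6 and grhl3. Of these, 8 of 10 fell and 0 rose, with summed levels of 4280 to 4872 CPM among intact and 2918 to 3793 CPM among half-size libraries. Among them tp63.S, the p63 gene of basal cells, fell by 2.51 ± 0.25 log2 units (SE, adjusted p = 0.000613), grhl3.S by 0.75 (adjusted p = 0.000685) and krt.L by 0.61 (adjusted p = 0.00993). Krt12 is on both of these lists, so it does not set the 2 cell types apart. The RNA of the other listed genes, too, can come from other cells of a whole embryo. These values therefore do not measure goblet cells or basal cells alone. Besides tp63, the genes that fell on the basal list were homeologs of krt12, krt and grhl3. Whether those mark basal cells at this stage was not tested. Itga6.L and itga6.S did not pass, and itga6.S passed as higher without the low-count filter. Leaving out replicate 3 ended the call of krt.L (adjusted p = 0.0534) and left 4 of the 10 genes on the basal list past the threshold.

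Ionocytes and small secretory cells also arise in the deep layer and move into the outer one. Of the ionocyte markers 3 of 11 tested fell and 0 rose by the paired fit, while 8 more rows had too few counts to be tested. Foxi1.L, a transcription factor gene that specifies ionocytes and also the row found for foxi1e, stood at 20.1, 26.1 and 13.2 CPM in intact and at 6.46, 12.02 and 3.32 CPM in half-size replicates 1, 2 and 3, without overlap between groups (log2 fold change −1.55 ± 0.16 SE, adjusted p = 0.000973). Foxi1.S (−1.02, adjusted p = 0.00220) and foxi4.1.L (−0.63, adjusted p = 0.0256) also fell, the latter call being lost without any 1 of the 3 sets (adjusted p between 0.0542 and 0.0945), and ca12.L did not pass (−0.61, adjusted p = 0.163). Summed over all 19 rows the level of the ionocyte list was 142 to 207 CPM among intact and 153 to 192 CPM among half-size libraries, with overlap. Whether the RNA of foxi1 came from ionocytes was not tested. Of the small secretory cell markers 0 of 4 passed in either direction, at unadjusted p under 0.05 without the block also 0. Only homeologs of foxa1 and vim were tested, and in whole embryos their RNA can come from other cells, so these values do not measure small secretory cells. The log2 fold changes of foxa1.L, foxa1.S, vim.L and vim.S were 0.00, −0.02, 0.19 and 0.15 (adjusted p = 0.985, 0.936, 0.273 and 0.523), and the summed level was 126 to 198 CPM among intact and 129 to 225 CPM among half-size libraries.

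Genes listed for cells outside the epidermis that also use single members of the set were read in the same way. Their RNA, too, can come from other cells of a whole embryo. These values therefore do not measure the left-right organizer or blood precursors. Markers of the left-right organizer and superficial mesoderm, where foxj1 is used, had 0 of 14 lower and 4 higher in the paired fit. Gdf3.S, not.L, not.S and t.S rose by 0.64, 0.86, 0.48 and 0.38 log2 units (adjusted p = 0.00258, 0.00343, 0.0309 and 0.0225), with the calls of not.S and t.S lost without replicate 3 (adjusted p = 0.162 and 0.128) and that of t.S without replicate 2 (0.128). The summed level of that list was 851 to 1181 CPM among intact and 985 to 1379 CPM among half-size libraries. Of the blood and endothelial markers, among whose cells myb is used, 3 of 8 tested fell, and 10 further rows, including both homeologs of gata1 and tal1, had too few counts to be tested, spi1.S having none in any library. Spib.L, spib.S and etv2.L fell by 1.66, 1.36 and 0.74 log2 units (adjusted p = 0.0155, 0.0243 and 0.0412). The calls were lost with paired DESeq2 for spib.L (adjusted p = 0.0751) and etv2.L (0.0870), and without replicate 3 for spib.S (0.0726) and etv2.L (0.206), the latter also without replicate 2 (0.212). DESeq2 gave spib.S no adjusted p, and without replicate 2 spib.S was too low to be tested while spib.L stood at −2.46. In that setting 1 of 6 tested genes of the list was lower and 2, cebpa.L and cebpa.S, were higher. Etv2.S did not pass (−0.46, adjusted p = 0.163), except with homeologs summed (adjusted p = 0.0398). The summed level of the blood list was 47.8 to 96.1 CPM among intact and 64.1 to 91.6 CPM among half-size libraries.

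Of the neural progenitor markers, relevant to the neural use of foxn4, 1 of 14 fell and 0 rose. Pax6.S.g fell by 0.89 log2 units (adjusted p = 0.0133), a call lost without replicate 2 (adjusted p = 0.0796), and sox3.L.g, sox3.S.g and ncam1.S did not pass (log2 fold changes 0.27, 0.34 and −0.42; adjusted p = 0.203, 0.0845 and 0.102), although sox3.L.g and sox3.S.g passed as higher without replicate 1 (adjusted p = 0.0228 and 0.00780). The summed level was 460 to 605 CPM among intact and 531 to 624 CPM among half-size libraries, with 0 of the 18 rows without counts throughout.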

How the data were processed

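Per the labels' protocols, poly(A)-selected, strand-specific libraries (TruSeq Stranded mRNA) were made from total RNA of whole embryos. Per the submitters' processing notes the tools were TopHat2, HTSeq and DESeq, with no version stated. Genome build, annotation and the use of strand in counting are likewise not given in the sources used here, and the authors deposited raw read counts per gene and library. In the authors' deposited table of their own comparison, with 19518 genes, group means are a signal (size-factor-scaled counts, recomputed from the counts to within 0.878%), beside a linear fold ratio, its log2 and p-values. Of these only the fold was used.

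Counts were tested with edgeR 4.0.16 in R 4.3.3 (quasi-likelihood F test, TMM, filterByExpr, Benjamini-Hochberg adjustment over 21673 genes). The unpaired fit modelled the group alone, and the paired fit added the replicate number. The labels name siblings, and deviations from group means correlated at 0.75, 0.82 and 0.68 within numbers. No 2 libraries were alike within sampling noise (chi-square per degree of freedom 13.3 to 91.3). Because nothing states how many animals each library holds, p-values measure the spread between these samples. Alternatives were DESeq2 1.42.0, its size factors, no filter, summed homeologs and left-out libraries.

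The regulators, gene lists and tests were chosen with earlier results of these data known. List symbols were matched directly or by synonyms of Xenopus_laevis_v10.1, found for 10 of 14 transcription partners, 17 of 30 centriole, 36 of 59 motile cilium, 18 of 27 Notch and 24 of 29 paralog symbols; the synonyms dlx2 (for dll4) and esr2 (for hes5.3) were left out as names of other genes. Of the cell type symbols, 11 of 19 were found for ionocytes and 3 of 7 for small secretory cells. For goblet and basal cells 6 of 11 and 5 of 11 were found. For the left-right organizer, blood and neural lists 14 of 17, 11 of 14 and 11 of 14 were found. Named in each list are the up to 4 genes of at least 1 CPM with the smallest paired p, genes named as looked up later, and the neighbours of ccno.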

Additional observations from a re-analysis of the deposited data

How the results depend on the processing

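The calls depended on pairing. Without the block edgeR called 0 genes under every alternative run, and DESeq2 called 52. With the replicate block edgeR called 1283 genes, DESeq2 1118, edgeR with DESeq2's size factors 1271, without the low-count filter 2568, with homeologs summed 1044, and without replicates 1, 2 and 3 in turn 1471, 1055 and 507. On the pathway lists the count went from 0 without the block, by edgeR and DESeq2, to 10 in the paired fit, 11 with paired DESeq2, 10 with DESeq2's size factors, 21 without the filter, 6 with homeologs summed, and 16, 9 and 5 without replicates 1, 2 and 3 in turn. Between sibling sets 10631 genes differed, and between 4663 and 9512 with 1 replicate left out. All 11 regulators were lower in half-size embryos under all 19 settings run, which share the comparison that chose them. How many other genes kept 1 sign throughout was not counted. Unpaired DESeq2 called 6 of the 11, where 37 genes were called lower. Paired DESeq2 called 9 of the 11, where 694 genes were called lower. The paired fit called 10 without replicate 1 and 9 without replicate 3, where 805 and 342 genes were called lower. Foxj1.L passed in 5 of 8 paired settings. Nothing is read from these counts. Without the low-count filter the paired fit also called, among listed genes, ca12.L, ccdc67.L, ccng1.L, rfx2.S and rfx4.L as lower. As higher it then also called ccna1.S, ccnf.S, cebpa.L, foxi4.2.S, hes4.S.g, itga6.S, numbl.L, plk1.S, sox3.S.g, tuba1b.S and wdr16.L. Paired DESeq2 called 6 of 10 basal epidermal markers and 0 of 8 blood markers, giving spib.S no adjusted p. Low counts of cdc20b-like.L and foxj1.2 limit the precision of their folds.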
